A study of Mus musculus with 30 samples.

Results

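The 10 genes described here encode parts of the autophagy machinery, from the cargo receptor p62 (Sqstm1) through the ATG8-family proteins that coat the autophagosome (Map1lc3a, Map1lc3b, Gabarap, Gabarapl1) and the proteins that start it (Ulk1, Becn1, Wipi1) to a pair of transcription factors that act on such genes (Tfeb, Tfe3). They were chosen by symbol, with earlier results of these data known, and each symbol matched 1 of the 56941 gene rows of the count tables. Autophagy encloses cytoplasm and marked cargo in a double membrane and delivers it to the lysosome. p62 binds ubiquitinated cargo and the ATG8 proteins at the same time, and is itself degraded with the cargo, so its mRNA and its protein need not move together. In neurons, which do not divide, this turnover is a main route for removing damaged proteins and organelles, and in the hypothalamus it is tied to the sensing of nutrients. Every value below is an mRNA level. Autophagic flux and protein were not measured in these files.

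The cells were mHypoA-2/12, an immortalized clonal line from the hypothalamus of an adult mouse. They received cannabidiol (CBD), a non-intoxicating compound of Cannabis, at 0.325, 0.75, 1.5 or 3 µM, or vehicle, the DMSO solvent that every culture shared, and were collected after 6 h or 24 h. Each of the 10 groups held 3 libraries of 3′ mRNA sequencing, 30 in all, named A1 to A30 in the labels. Between 1839621 and 4420675 reads per library fell on genes. Among the vehicle libraries of 6 h, A3 stood farther from A1 and A2 (chi-square per gene of 12.01 and 10.82) than these from each other (2.233), a measure that grows with depth, and A3 held 3574833 reads on genes against 1839621 and 1919498. Among the 3 µM libraries of 24 h, A16 stood farthest, at 10.43 and 7.242 against 4.521.

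Of 11 neuronal marker genes, 6 averaged at least 1 CPM (counts scaled to a common library size), as did 6 of 6 mesenchymal markers, 2 of 4 astrocyte, 2 of 3 microglial and 1 of 3 oligodendrocyte markers, so the markers did not set the line apart as neuronal. The 5 neuronal markers under 1 CPM were Rbfox3, Syp, Snap25, Npy and Agrp. In such bulk samples, fewer cells of a type and less RNA per cell cannot be told apart. All 10 autophagy genes passed the filter on low counts at both times. Levels are CPM after TMM scaling, fold changes are log2 with their standard error (SE), and a gene was called at a Benjamini-Hochberg adjusted p below 0.1 over all genes tested, by the quasi-likelihood test of edgeR.

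The promoters of 8 of the 10 genes had RefSeq windows (GRCm38.p6, from 250 bases before to 50 after the start of transcription). Those of Map1lc3a and Becn1 had none. The windows of Sqstm1 and Ulk1 are shown because these were the 2 genes of the 10 whose CBD and vehicle libraries did not overlap at 6 h. Capitals mark GGGCGG on either strand, the core of the GC box bound by SP-family factors, a motif added after the windows had been read and present in 35.7% of 32851 windows of all genes. It also stood in windows of Map1lc3b, Gabarapl1, Wipi1, Tfeb and Tfe3, and not in that of Gabarap, so it does not set Sqstm1 and Ulk1 apart. The Sqstm1 stretch is chr11:50210821-50211070 and the Ulk1 stretch chr5:110810082-110810331, both read on the minus strand and ending at the base before the start.
Sqstm1: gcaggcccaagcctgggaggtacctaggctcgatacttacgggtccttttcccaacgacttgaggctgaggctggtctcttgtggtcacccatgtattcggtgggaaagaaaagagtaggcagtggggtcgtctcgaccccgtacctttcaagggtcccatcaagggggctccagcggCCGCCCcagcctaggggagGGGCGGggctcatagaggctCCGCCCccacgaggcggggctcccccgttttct
Ulk1: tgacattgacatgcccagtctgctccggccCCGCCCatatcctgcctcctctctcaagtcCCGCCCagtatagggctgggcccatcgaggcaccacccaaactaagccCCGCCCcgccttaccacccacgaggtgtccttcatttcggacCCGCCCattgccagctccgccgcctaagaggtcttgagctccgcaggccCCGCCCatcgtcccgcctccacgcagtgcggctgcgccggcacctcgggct
Map1lc3b: gcgagtcaccTGACTCGGCtgcggactga

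The third line shows the only match among these genes to the 3 other motifs searched on both strands. TGACNNNGC, the antioxidant response element recognised by NRF2, stood in the Map1lc3b window on the plus strand, its first base at base 5 of the transcript. The motif occurred in 12.4% of all windows. The 29 bases shown are chr8:121590432-121590460, the match in capitals with its flanks. CACGTG, the core of the site bound by TFEB and TFE3, was in 7.15% of all windows, and TGATGNAA, the element of C/EBP and ATF factors, in 3.97%. Neither was found, on either strand, in the windows of the 8 genes. The letters describe these windows alone and do not tell where a factor binds.

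Sqstm1 was the gene of the 10 that differed between CBD and vehicle. After 6 h its mRNA was lower in every CBD library than in every vehicle library, at 0.633 of the vehicle level, and the size of the difference was much the same at 0.325 and at 3 µM. After 24 h no difference was detectable. Sqstm1 (ENSMUSG00000015837, GRCm38 chromosome 11, 50199366 to 50210827, minus strand) overlaps Mrnip on the opposite strand, and the strand setting of the counting was not stated.

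At 6 h the 3 vehicle libraries held 582.2, 700.5 and 507.3 CPM of Sqstm1. The 3 libraries of each dose averaged, from the lowest dose to the highest, 375.1 ± 34, 386.8 ± 75.5, 377.9 ± 26.4 and 373.6 ± 34.3 CPM (SD, n = 3). Over the 12 CBD libraries the lowest was 311.3, the median 381 and the highest 462.3. No CBD library reached the lowest vehicle library, and the dose groups lay within each other's spread. All 12 CBD libraries fell below all 3 vehicle libraries for 0.724% of the genes tested, and all 12 lay above for 0.733%. Of the 10 autophagy genes, 1 was of the first kind (Sqstm1) and 1 of the second (Ulk1).

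**Figure D1:**
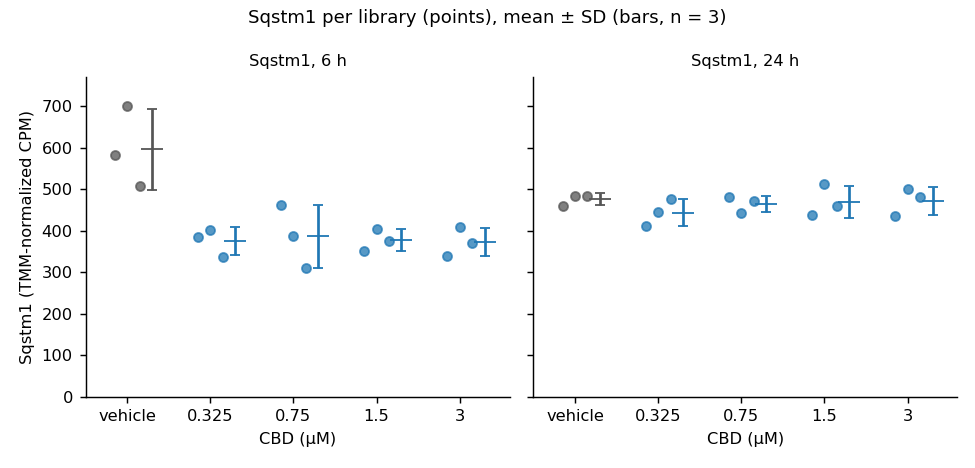
Sqstm1 in each library (points, CPM after TMM scaling) by CBD dose in µM, at 6 h (left) and 24 h (right), with the mean ± SD of 3 libraries. At 6 h the vehicle libraries lie between 507.3 and 700.5 CPM and all CBD libraries between 311.3 and 462.3, while at 24 h the groups overlap.

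Taken over the 4 doses, the log2 fold change of Sqstm1 at 6 h was -0.66 (SE 0.11, 95% interval -0.88 to -0.44), with an edgeR adjusted p of 0.00476 and the eighth smallest p of 12012 genes. It was the 1 called gene of the 10, where 0.749% of all genes were called. The call held in all 15 fits that left out 1 library, between -0.76 and -0.53. The highest adjusted p among these fits was 0.0967, and without vehicle library A3 the difference was -0.76 (adjusted p = 0.000335).

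Dose by dose, Sqstm1 fell by 0.675 on the log2 scale at 0.325 µM (SE 0.147, adjusted p = 0.0664), the 1 called gene of the 10 beside 0.2% of all genes. The difference was -0.63 at 0.75 µM (adjusted p = 0.159), -0.66 at 1.5 µM (adjusted p = 0.112) and -0.675 at 3 µM (adjusted p = 0.1), so that 0 of the 10 genes were called at these doses, where 0.0749%, 0.0999% and 0.05% of all genes were. At an unadjusted p below 0.05 there were 3, 4 and 4 of the 10, beside 936, 950 and 872 of all 12012 genes tested. DESeq2, which called 0.591%, 0.4%, 0.466% and 0.4% of all genes from the lowest to the highest dose, called Sqstm1 at each of them, with adjusted p-values of 0.0344, 0.0115 and 0.0138 at the 3 higher doses. Every dose was set against the same vehicle libraries of 6 h, so the differences and calls at the doses are not independent of each other. The call at 0.325 µM was lost when only the 6 libraries compared entered the fit (adjusted p = 0.645). It was also lost without vehicle library A2, which had the highest level (-0.54, adjusted p = 0.245), and in 6 of the other leave-one-out fits. Without A3, Sqstm1 passed at all 4 doses, between -0.73 and -0.78.

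No dependence on dose was detectable for Sqstm1 at 6 h. A test for any difference among the 4 doses gave an adjusted p of 1, and 3 µM against the 3 lower doses gave -0.02 (95% interval -0.26 to 0.22). By edgeR, 0 of the 10 genes and 0% of all genes were called in either test, with 452 and 624 of all genes at an unadjusted p below 0.05, and DESeq2 called 0 genes in both. Map1lc3a was the 1 gene of the 10 at an unadjusted p below 0.05 for any dose difference (adjusted p = 1).

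At 24 h the vehicle libraries held 459.1, 484.7 and 483.7 CPM of Sqstm1. The CBD libraries ranged from 411.2 to 512.3 with a median of 466.2, and 5 of 12 lay below and 2 of 12 above all vehicle libraries. The log2 fold change over the doses was -0.05 (SE 0.083, adjusted p = 0.967), and its 95% interval of -0.21 to 0.12 did not reach the size seen at 6 h.

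Ordered by level, the vehicle group of 6 h stood highest for Sqstm1, and its gap of 120.9 CPM to the next group, vehicle at 24 h, exceeded the larger SD of 97.4. Below it came the 5 groups of 24 h and then the 4 CBD groups of 6 h. None of these neighbours differed by more than the larger of their SDs. The difference between vehicle and CBD itself differed between the times. The change at 24 h minus that at 6 h was 0.62 on the log2 scale (SE 0.143, 95% interval 0.34 to 0.9, adjusted p = 0.0656), which called 1 of the 10 genes (Sqstm1) beside 0.235% of all genes. This call rests on small margins. It was lost in 9 of 30 leave-one-out fits, among them the fit without vehicle library A2 (0.48, adjusted p = 0.304) and those without the vehicle libraries A28, A29 and A30 of 24 h (adjusted p = 0.246, 0.163 and 0.178).

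**Figure D2:**
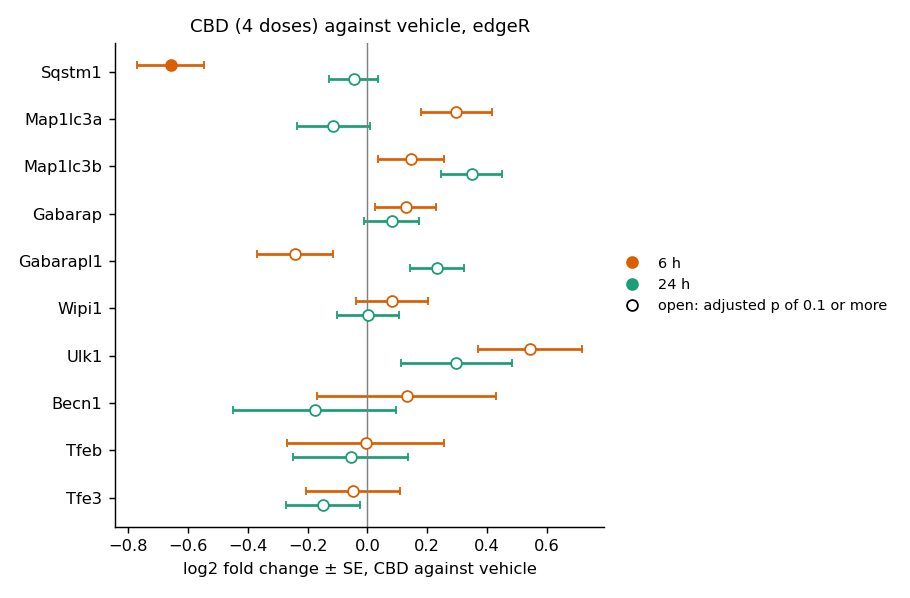
Log2 fold change ± SE of CBD over its 4 doses against vehicle for the 10 autophagy genes at 6 h and 24 h (edgeR, 12 against 3 libraries), filled where the adjusted p was below 0.1. Sqstm1 at 6 h, at -0.66, is the single filled point, and Ulk1 at 6 h, at 0.545, lies farthest to the other side.

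Ulk1 and Becn1 encode enzymes and scaffolds of the first steps. ULK1 is the kinase that starts autophagosome formation and is held back by mTORC1, and Beclin 1 (Becn1) is a subunit of the lipid kinase complex that marks the site. Ulk1 (ENSMUSG00000029512, GRCm38 chromosome 5, 110784488 to 110810097, minus strand) was higher in all 12 CBD libraries than in the vehicle libraries at 6 h, without passing the threshold, and at 24 h it was lower at 3 µM than at the lower doses. Becn1 did not differ detectably in any comparison.

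The vehicle libraries of 6 h held 25.02, 27.21 and 26.66 CPM of Ulk1. The CBD libraries ran from 32.33 through a median of 36.4 to 50.33. The groups did not overlap. Over the doses the log2 difference was 0.545 (SE 0.174, 95% interval 0.2 to 0.89), and the adjusted p of 0.224 did not pass. Without A3 it was 0.56 (adjusted p = 0.22). By dose it lay between 0.485 and 0.63.

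At 24 h Ulk1 held 76.64, 49.07 and 63.96 CPM in the vehicle libraries. With CBD it held 98.83, 95.86 and 69.07 at 0.325 µM, 81.89, 90.17 and 105.3 at 0.75 µM, and 102.9, 99.72 and 85.27 at 1.5 µM. The 3 µM libraries held 21.43, 72.6 and 52.61. Library A16, the first of these, was the lowest of the time, and 1 of the 3 libraries at 3 µM lay above the lowest library of the lower doses.

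**Figure D3:**
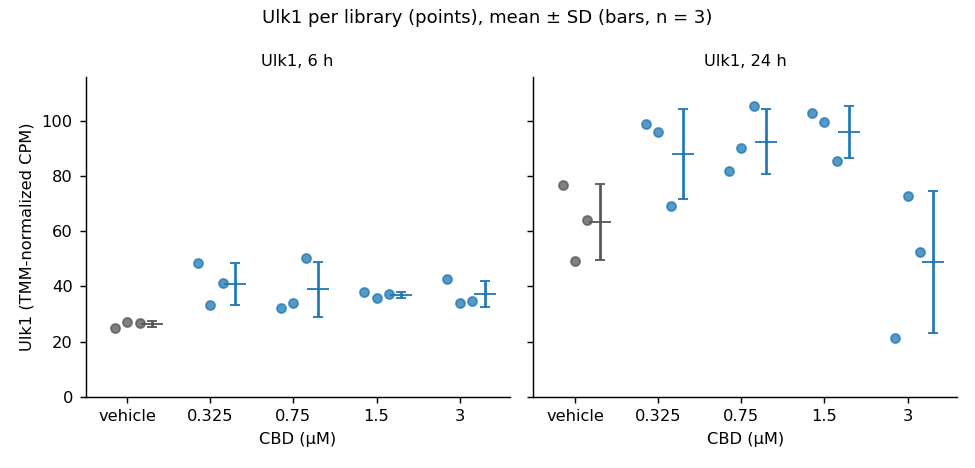
Ulk1 in each library (points, CPM after TMM scaling) by CBD dose in µM, at 6 h (left) and 24 h (right), with the mean ± SD of 3 libraries. At 6 h all CBD libraries lie above the vehicle libraries, and at 24 h the 3 µM libraries spread from 21.43 to 72.6 CPM.

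At 3 µM and 24 h Ulk1 fell by 0.90 on the log2 scale against the mean of the 3 lower doses (SE 0.206, adjusted p = 0.013). It was the 1 called gene of the 10, and 10.5% of all genes were called in that comparison, so 1 of 10 is near the background. The test for any dose difference at 24 h gave an adjusted p of 0.0994 for Ulk1, again 1 of the 10, beside 1.93% of all genes. Without library A16 the first difference was -0.55 (adjusted p = 0.149). The second call was lost in 11 of 15 leave-one-out fits, A16 among them, and with DESeq2. Without library A17, the highest of the 3 at 3 µM, 3 of the 10 genes were called in the first comparison (Ulk1, Map1lc3a and Map1lc3b), beside 18.3% of all genes, and 2 in the second (Ulk1 and Map1lc3a), beside 8.62%. Reads outside annotated genes made up 21.4% at 3 µM and in vehicle, against 19.41, 19.44 and 19.75% at the lower doses from lowest to highest. With that share as a covariate the difference was -1.11 (adjusted p = 0.267). Its part in the result was not tested.

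Against vehicle at 24 h, Ulk1 did not pass at any dose, with log2 differences of 0.46, 0.53, 0.58 and -0.38 from the lowest to the highest and adjusted p-values of 0.598, 0.602, 0.579 and 0.661. Becn1 was low, between 4.51 and 13.09 CPM in all libraries. Its difference over the doses was 0.13 (SE 0.301) at 6 h and -0.18 (SE 0.272) at 24 h, with 95% intervals of -0.46 to 0.72 and -0.71 to 0.36.

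The ATG8-family genes encode the ubiquitin-like proteins that are joined to lipid in the autophagosome membrane, where cargo receptors dock. None of the 4 was called against vehicle at either time. At 24 h Map1lc3b and Gabarapl1 lay above all vehicle libraries in 11 of 12 CBD libraries each. All 12 lay above for 0.338% of the genes tested at 24 h. For counts short of 12 of 12, the share of all genes was not computed, so such counts do not set a gene apart. LC3B (Map1lc3b) is the protein most used as a marker of autophagosomes, and GABARAPL1 belongs to the GABARAP branch of the family.

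At 6 h the vehicle libraries held 211.9, 202.2 and 210.7 CPM of Map1lc3b. The CBD libraries ranged from 190.7 to 284.6 with a median of 222.6, across the vehicle values. At 24 h vehicle held 351.3, 348.1 and 395.9, and CBD ran from 373.9 through 478.4 to 527.3. All but 1 of the CBD libraries of 24 h lay above the vehicle libraries. The log2 difference was 0.15 at 6 h (adjusted p = 0.719) and 0.35 at 24 h (SE 0.101, adjusted p = 0.353). Among the single doses of 24 h it was largest at 0.75 µM, at 0.45 (adjusted p = 0.312), and that value passed when no filter on low counts was used (adjusted p = 0.0937) and when only the 6 libraries compared entered the fit (adjusted p = 0.0388). Map1lc3b (ENSMUSG00000031812, GRCm38 chromosome 8, 121590361 to 121598760, plus strand) overlaps Gm20388 on its own strand and Zcchc14 on the other. The transcript end of Map1lc3b also held at least 100 bases that matched 653 other genes at 90% identity or more, and none at 200 bases, and whether reads from such a stretch were counted was not stated.

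Gabarapl1 held 109, 125.9 and 79.41 CPM in the vehicle libraries of 6 h, and between 69.49 and 105.3 with CBD. At 24 h the vehicle libraries held 138.6, 137.9 and 152.8, and the CBD libraries ran from 150.6 through 167.8 to 185.8. The groups overlapped widely at 6 h, and by 1 CBD library at 24 h. The log2 difference was -0.24 at 6 h (SE 0.127, adjusted p = 0.538) and 0.23 at 24 h (SE 0.0898, adjusted p = 0.646). Gabarapl1 also overlaps 1700101I11Rik on the opposite strand and Gm44243 on its own.

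**Figure D4:**
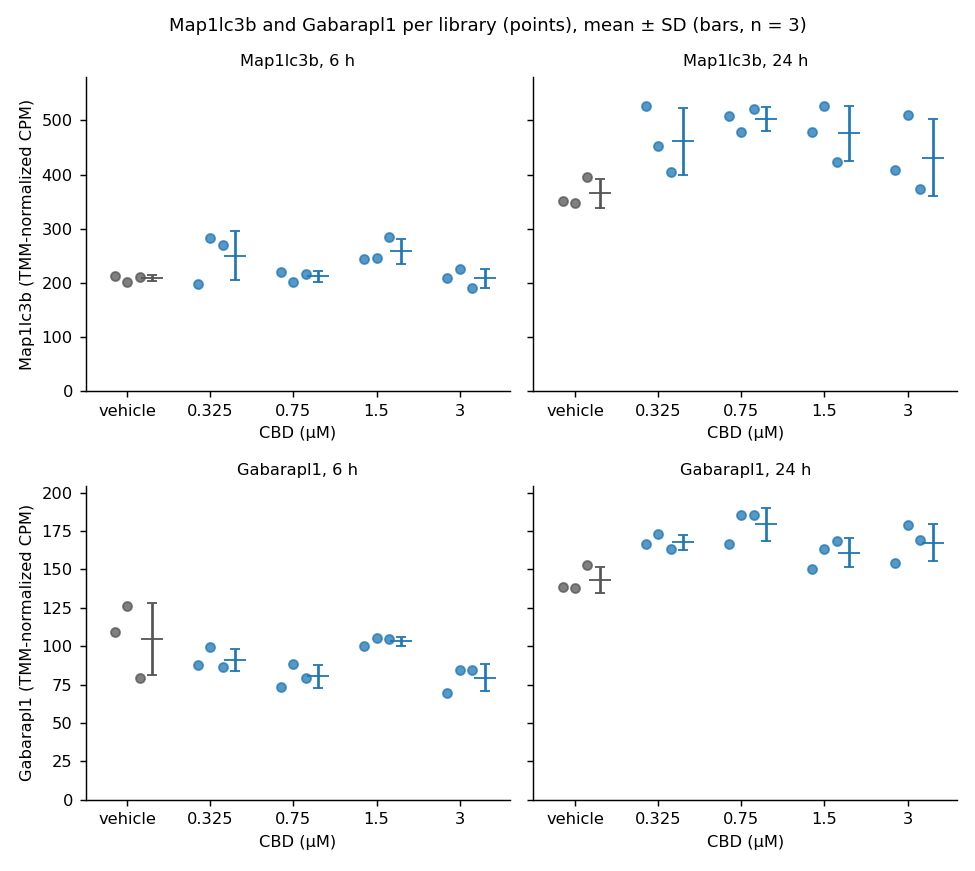
Map1lc3b (top) and Gabarapl1 (bottom) in each library (points, CPM after TMM scaling) by CBD dose in µM, at 6 h (left) and 24 h (right), with the mean ± SD of 3 libraries. At 24 h, 11 of 12 CBD libraries lie above all vehicle libraries for each gene, and both genes are higher at 24 h than at 6 h. The share of all genes with such a count was not computed.

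Map1lc3a, which encodes LC3A, held 273, 267.8 and 213.8 CPM in the vehicle libraries of 6 h. With CBD it ranged from 205.4 to 391 with a median of 323, and 10 of 12 libraries lay above the vehicle libraries. The groups overlapped through the 0.75 µM libraries, whose mean of 249.3 ± 44.8 (SD, n = 3) was below that of vehicle. The difference over the doses was 0.30 (SE 0.119, adjusted p = 0.36), and it passed when reads outside genes entered the fit as a covariate (0.33, adjusted p = 0.0931). Without A3 it was 0.19 (adjusted p = 0.572). At 24 h Map1lc3a held 407.4, 412.1 and 286.1 CPM in vehicle and between 209.4 and 428.8 with CBD, with a difference of -0.12 (SE 0.122).

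Gabarap was the steadiest of the 4, with vehicle libraries from 197.9 to 243.8 CPM and CBD libraries from 215.8 to 270.4 at 6 h. At 24 h they ran from 228.4 to 278.4 and from 222.7 to 296.8. The log2 differences of 0.13 (SE 0.103) and 0.08 (SE 0.0913) did not pass.

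Wipi1, Tfeb and Tfe3 did not differ detectably between CBD and vehicle. WIPI1 binds the lipid that the kinase complex makes on the growing membrane, and TFEB and TFE3 are transcription factors of lysosomal and autophagy genes that enter the nucleus when mTORC1 is off, a step that mRNA levels do not show. Wipi1 lay between 85.24 and 125.1 CPM in vehicle and between 98.45 and 130.9 with CBD at 6 h, a difference of 0.08 (SE 0.12). At 24 h its difference was 0.00 (SE 0.103, 95% interval -0.2 to 0.2). Tfeb ranged from 9.72 to 23.35 CPM in vehicle and from 9.71 to 28.4 with CBD at 6 h, and differed by -0.01 (SE 0.263). Tfe3 ranged from 50.81 to 81.74 and from 49.39 to 75.59, and differed by -0.05 (SE 0.156). The groups of all 3 genes overlapped at both times. At 24 h the differences were -0.06 (SE 0.193) for Tfeb and -0.15 (SE 0.123) for Tfe3.

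Over the 10 genes, the median log2 difference at 6 h was 0.105, with 6 above and 4 below 0, and the median of all genes tested was -0.019. At 24 h it was -0.022, with 5 on each side, beside -0.006 for all genes. No gene of the 10 was called against vehicle at 24 h by edgeR or DESeq2, either over the doses (0.107% of all genes by edgeR) or at 0.325 (0.066%), 0.75 (0.0825%), 1.5 (0.0413%) or 3 µM (0.00825%). DESeq2 gave no adjusted p to 1 of the 10 over the doses and to 2 at 1.5 µM, so it could not call these. At an unadjusted p below 0.05 there were 2 over the doses, Map1lc3b and Gabarapl1, and between 1 and 3 at each dose. Of all 12118 genes tested, 815 were below it over the doses and between 889 and 1110 at each dose.

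Most of the movement among these genes was between 6 h and 24 h, in vehicle as well as in CBD. Time and any batch that followed it cannot be told apart, since no batch was labelled. Map1lc3b, Gabarapl1 and Ulk1 rose in both, and Sqstm1 fell with vehicle and rose with CBD. In vehicle, 5 of the 10 genes were called, beside 26.7% of all genes. Of these, 4 rose (12.5% of all genes did) and 1 fell (14.2%). In CBD, 6 of the 10 were called, beside 53.6% of all genes, all 6 upwards, as were 26% of all genes, while 27.6% of all genes and 0 of the 10 were lower. The median over the 10 genes was 0.306 in vehicle and 0.192 in CBD, beside -0.025 and -0.01 over all genes.

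Sqstm1 fell by 0.325 in vehicle (SE 0.127, adjusted p = 0.0666) and rose by 0.29 in CBD (SE 0.0641, adjusted p = 0.000296). The rise held in all 30 leave-one-out fits. The fall was lost in 6 of 30, for example without vehicle library A2 (-0.185, adjusted p = 0.39), and without a filter on low counts (-0.28, adjusted p = 0.248). Ulk1 rose by 1.27 in vehicle (SE 0.251, adjusted p = 0.000429) and by 1.03 in CBD (SE 0.119, adjusted p = 7.4e-09).

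Map1lc3b rose by 0.81 in vehicle (SE 0.134, adjusted p = 4.94e-05) and by 1.015 in CBD (SE 0.0666, adjusted p = 8.06e-15). Gabarapl1 rose by 0.46 (SE 0.134, adjusted p = 0.0121) and by 0.94 (SE 0.0673, adjusted p = 9.21e-14). The difference between these last rises was 0.47 (SE 0.15, adjusted p = 0.34) and did not pass. It did without vehicle library A3 (0.65, adjusted p = 0.0591), the fit in which the vehicle rise was not called (0.30, adjusted p = 0.138).

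Map1lc3a rose in vehicle by 0.56 (SE 0.162, adjusted p = 0.0124) and was 0.15 higher in CBD without passing (adjusted p = 0.132). The difference between them was not called (adjusted p = 0.728). Gabarap and Wipi1 rose in CBD by 0.14 (adjusted p = 0.0486) and 0.24 (adjusted p = 0.00506). In vehicle their differences were 0.18 (adjusted p = 0.288) and 0.31 (adjusted p = 0.108), no smaller than in CBD. The vehicle rise of Wipi1 passed with DESeq2 (adjusted p = 0.084) and with at least 10 counts in every library (edgeR adjusted p = 0.0763). It stayed uncalled in 11 of 30 leave-one-out fits. The CBD call of Gabarap was lost without a filter on low counts (edgeR adjusted p = 0.126). Becn1, Tfeb and Tfe3 were not called, with differences between -0.03 and 0.30 in vehicle and between -0.125 and -0.01 in CBD.

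**Figure D5:**
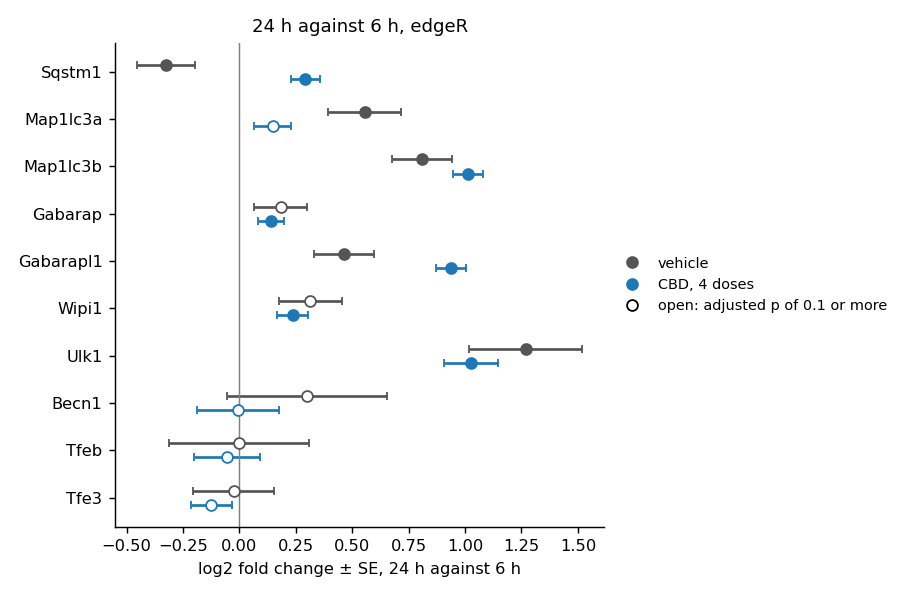
Log2 fold change ± SE from 6 h to 24 h for the 10 autophagy genes in vehicle (3 against 3 libraries) and in CBD over its 4 doses (12 against 12), filled where the edgeR adjusted p was below 0.1. Sqstm1 stands at -0.325 in vehicle and 0.29 in CBD, and Map1lc3b, Gabarapl1 and Ulk1 are filled to the right in both.

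Over the 30 libraries, Map1lc3b and Gabarapl1 had a Pearson correlation of 0.91 on the log2 scale, and 0.095 once each group's mean was removed, so their likeness lay between the groups. Sqstm1 and Gabarapl1 correlated at 0.50 over the libraries and also within groups. Within groups Sqstm1 lay farther from 0 with the low-count gene Becn1, at -0.64 (-0.324 over the libraries). Pairs without Sqstm1 also reached such sizes within groups, as Gabarap and Tfe3 at -0.685 and Wipi1 and Tfe3 at 0.544. The correlations were not tested, so none sets a pair apart. These libraries came from 1 protocol and differ in depth between groups.

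The genes most like Sqstm1 over the 30 libraries, among 8677 with a mean of at least 10 CPM, were Ndrg1, a gene raised by hypoxia and stress (Pearson r = 0.791), Rbfox2, a splicing factor (0.738), Poldip3 (0.731), Plin2, a lipid droplet coat protein (0.715), and Ctns, the cystine exporter of the lysosome (0.697). Of these 5, 1 stayed among the first 5 with Spearman's correlation (Ctns), and 2 did with the 10 group means or without the 2 libraries farthest from the median of Sqstm1.

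Other genes of the pathway were followed as a list of 63, of which 57 were tested at 6 h and 55 at 24 h. The list covers the initiation complex, the lipid kinase complex, membrane supply, conjugation, cargo receptors, fusion with lysosomes and nutrient signalling. None was called against vehicle at either time by edgeR or DESeq2, over the doses or at any dose. DESeq2 gave no adjusted p to part of the list, and such genes could not be called by it. These were 27 of the 57 at 1.5 µM and 6 h, and 23 of the 55 at 1.5 µM and 24 h. Over the doses at 24 h they were 8 of the 55, and in the other comparisons with vehicle at most 6. At an unadjusted p below 0.05 there were 7 over the doses at 6 h, beside 1234 of all 12012 genes tested. At 24 h there was 1, beside 815 of 12118. Their median log2 difference over the doses was 0.03 at 6 h and 0.05 at 24 h.

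At 24 h, 3 of the 55 (5.45%) were lower at 3 µM than at the lower doses and none higher. Of all genes, 10.5% were called and 504 of 12118 were lower, so 3 of 55 is near the background. They were Pik3c3, the catalytic subunit of the lipid kinase (-0.73, adjusted p = 0.0427), its regulatory subunit Pik3r4 (-0.41, adjusted p = 0.0751) and Nbr1, a cargo receptor related to p62 (-0.615, adjusted p = 0.0456). All 3 calls were lost without library A16, without library A18, and when reads outside genes entered the fit as a covariate. The call held in 13 of 15 leave-one-out fits for Pik3c3 and for Nbr1, and in 8 for Pik3r4. That of Pik3r4 was also lost without a filter on low counts and with all 30 libraries in 1 fit. Over the 15 leave-one-out fits the differences stayed between -0.80 and -0.665 for Pik3c3, -0.45 and -0.36 for Pik3r4, and -0.745 and -0.55 for Nbr1.

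Between 6 h and 24 h, 11 of 57 rose and 3 fell in vehicle, and 22 rose and 5 fell in CBD. The share called was 24.6% in vehicle and 47.4% in CBD, below the 26.7% and 53.6% of all genes. The share called in either direction thus set the list apart in neither. Of all genes, 12.5% rose and 14.2% fell in vehicle, and 26% rose and 27.6% fell in CBD. By direction, the calls of the list leaned to rises, where those of all genes leaned slightly to falls. That lean of the list was not tested. The 6 with the smallest p in vehicle were Calcoco1, a receptor for endoplasmic reticulum and Golgi cargo (0.995, adjusted p = 0.00102), Ulk2, the close relative of ULK1 (1.12, adjusted p = 0.00499), Atg13, its partner (0.91, adjusted p = 0.00784), Atg2a, a lipid transfer protein (0.68, adjusted p = 0.00837), Pik3r4 (0.74, adjusted p = 0.00856) and Bnip3l, a mitophagy receptor (0.53, adjusted p = 0.0125). The 3 that fell were Atg5, a part of the conjugation machinery, Rab7, a GTPase of late endosomes, and Rragc, a GTPase that brings mTORC1 to the lysosome. The Rragc call (-0.49, adjusted p = 0.0978) held in 3 of 30 leave-one-out fits and was lost with DESeq2, and none of the 3 passed without a filter on low counts.

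In CBD the 6 were Foxo3, a transcription factor of autophagy genes (0.66, adjusted p = 2.01e-09), Calcoco1 (0.92, adjusted p = 7.4e-09), Atg12, a ubiquitin-like conjugation protein (0.74, adjusted p = 1.01e-08), Nbr1 (0.92, adjusted p = 1.71e-07), Pik3r4 (0.73, adjusted p = 1.72e-07) and Atg14, the subunit that directs the lipid kinase to autophagy (1.02, adjusted p = 1.63e-06). The 5 that fell were Atg7, Atg16l1, Bnip3, Tollip and Rab7. Of 30 leave-one-out fits, the call held in 14 for Atg7, 19 for Bnip3, 20 for Atg16l1, 28 for Tollip and 30 for Rab7, and those of Atg7, Bnip3 and Atg16l1 were also lost without a filter on low counts.

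p62 also releases NRF2 from its inhibitor KEAP1, and NRF2 and ATF4 both act on the Sqstm1 gene in other cells. Of 12 NRF2-pathway genes, 1 was called over the doses at 6 h, Hmox1, the heme-degrading stress enzyme, which fell by 1.19 (adjusted p = 0.00367, called in all 15 leave-one-out fits), where 0.749% of all genes were called. DESeq2, which called 1.1% of all genes, called 2 of the 12 (Hmox1 and Slc7a11). The median of the 12 was -0.018, with 6 above and 6 below 0. By edgeR, 4 of the 12 had an unadjusted p below 0.05 at 6 h, beside 1234 of all 12012 genes tested. At 24 h, 0 were called over the doses by edgeR or DESeq2, which gave 2 of the 12 no adjusted p. There, 2 had an unadjusted edgeR p below 0.05, beside 815 of 12118 genes. A list of the integrated stress response, in which ATF4 acts, was followed without Ddit3, whose symbol matched no single row. Of its 11 other genes, all 11 had a log2 difference below 0 over the doses at 6 h, with a median of -0.489, beside -0.019 for all genes. The share of all genes below 0 was not computed, and all 11 share the same vehicle libraries. The CBD libraries below all vehicle libraries ran from 0 of 12 for Atf5, 2 for Phgdh and 3 for Atf3 to 12 for Ppp1r15a. Of these 11, 7 had an unadjusted edgeR p below 0.05, beside the same 1234 of 12012 genes, and 2 were called, beside 0.749% of all genes. The called genes were Ppp1r15a, a phosphatase subunit that ends the response, which fell by 1.57 (adjusted p = 0.000382), and Atf4, which fell by 0.49 (adjusted p = 0.0647). DESeq2 (1.1% of all genes) called 4 of the 11 (Ppp1r15a, Atf4, Sesn2 and Trib3). The edgeR call of Atf4 was lost in 8 of 15 leave-one-out fits, among them those without vehicle libraries A1 and A2. Over the doses at 24 h, 0 of the 11 were called by either tool or had an unadjusted edgeR p below 0.05. DESeq2 gave 3 of the 11 no adjusted p there. The part of these genes in the level of Sqstm1 was not tested.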

How the data were processed

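Total RNA libraries were made with a 3′ mRNA kit and sequenced. Per the study's methods, the authors trimmed reads with Flexbar, checked them with FastQC 0.11.9, mapped them with STAR 2.7.5c to GRCm39 and counted them per gene with HTSeq 1.99.2. The deposited values are raw counts per gene and library, not normalized by the authors. One count table per library held 56941 genes and rows for reads outside genes, which were left out of library sizes. Symbols and positions came from GENCODE M21 (GRCm38), promoter windows from RefSeq (GRCm38.p6).

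Counts were tested with edgeR 4.0.16 (filterByExpr, TMM, quasi-likelihood F-test, R 4.3.3) within each time, and over all 30 libraries for the comparisons of time, in 17 comparisons with Benjamini-Hochberg adjustment over all genes tested. The method was first tested on simulated data. Levels were CPM and correlations used log2 CPM with a prior count of 2. Alternatives were DESeq2 1.42.0, other filters, other sets of libraries and a covariate.

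The 10 genes, the lists and the tests were chosen with earlier results of these data known. The named genes were the 10, the called genes of the pathway list (at most 6 per comparison, by p), the 5 most like Sqstm1, and any gene in a count of 5 or fewer. The labels do not say that replicates were separate cultures, so p-values measure the spread between these samples, which may be technical.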

Additional observations from a re-analysis of the deposited data

Results flagged for a closer look

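The change in Sqstm1 from vehicle to CBD differed between the times, by a test of the difference itself. It was 0.62 higher at 24 h than at 6 h on the log2 scale (value 0.616, SE 0.143, edgeR adjusted p = 0.0656). The level with CBD was lower in 12 of 12 libraries at 6 h and in 5 of 12 at 24 h than in every vehicle library of the same time. Without vehicle library A3 of 6 h the difference was 0.72 (adjusted p = 0.0204), and without A2 it was 0.48 (adjusted p = 0.304). The call held in 21 of 30 leave-one-out fits. It was also lost without each of the vehicle libraries A28, A29 and A30 of 24 h (edgeR adjusted p = 0.246, 0.163 and 0.178). Single libraries were not tested for standing apart, as each group held 3.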

How the results depend on the processing

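No paired analysis was possible because the labels number the libraries in 1 series and no 2 groups share a number. The call of Sqstm1 over the doses at 6 h held under every alternative and in every fit that left out 1 library. Among the 10 genes, the number called at 0.75, 1.5 and 3 µM at 6 h was 0 and became 1 each (Sqstm1) with DESeq2, without a filter on low counts, and with all 30 libraries in 1 fit. At 0.325 µM and 6 h it was 1 and became 0 when only the libraries compared were used, and at 0.75 µM and 24 h it was 0 and became 1 (Map1lc3b) in that fit and without the filter. With the percentage of reads outside genes in the fit as a covariate there were 2 called over the doses, 2 at 0.325 and 2 at 1.5 µM (Sqstm1 and Map1lc3a), and 1 each at 0.75 and 3 µM at 6 h, while both dose comparisons at 24 h had 0. Any dose difference at 24 h also had 0 with DESeq2 and with at least 10 counts in every library. Leaving out 1 library gave 0 to 1 at each single dose of 6 h, 0 to 2 for any dose difference at 24 h, 0 to 3 for 3 µM against the lower doses at 24 h, 0 to 2 for the difference between the times, 4 to 6 for vehicle and 6 to 7 for CBD over time. The causes were not tested. Of the 5 genes most like Sqstm1, 1, 2 and 2 stayed with Spearman's correlation, group means or 2 libraries fewer. Of the values of the 10 genes, the 42 with an unadjusted p below 0.05 were followed, and none reversed in 259 alternative or 855 leave-one-out values.

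Over all genes, the number called over the doses at 6 h was 90 and ranged from 51 (without A2) to 329 (with the covariate). The number for 3 µM against the lower doses at 24 h was 1275 and ranged from 30 (covariate) to 2303 (without A17). That for any dose difference at 24 h was 234 and ranged from 1 (covariate) to 1085 (without A17), and that for the difference between the times was 30 and ranged from 2 to 87. The number over the doses at 24 h was 13 and ranged from 0 to 47. Against vehicle at single doses the numbers ranged from 0 to 322 at 6 h and from 0 to 288 at 24 h. Low counts limit Becn1 and Tfeb most.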
